A study of Mus musculus with 10 samples.

Results

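The comparison described here is that of lungs 1 week after irradiation of the thorax with lungs of unirradiated mice of the same age. RNA sequencing was done on whole-lung cell suspensions of C57BL/6J mice, an inbred strain, whose whole thorax had received 12.5 Gy of γ-rays, or 0 Gy in the age-matched controls. Each library came from the pooled RNA of 3 mice. The study sampled lungs at 24 hours and at 1, 4, 12 and 32 weeks, with 1 irradiated and 1 control pool at each time. Of these 10 libraries, 2 make up the 1-week comparison, namely the irradiated pool and the control pool of that week. The other 4 control pools formed, together with the 1-week control, the reference group of the tests and of their log2 folds. They also showed how far unirradiated pools differ from each other. The irradiated pools of 24 hours and 4 weeks served to place the 1-week pool in time. Every gene of the deposited tables was considered, and 15625 of 45786 passed the filter on low counts and were tested. The pooled mice cannot be told apart, and the irradiated group at 1 week is a single library.

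Ionising radiation breaks DNA, and cells answer by stabilising the transcription factor p53, which switches on genes that halt the cell cycle, repair DNA or trigger cell death. Dividing cells and lymphocytes are among the more radiosensitive cells, whereas resting epithelial and endothelial cells tend to survive the first days. In the lung the alveolar type 2 cell, which makes surfactant lipids and proteins, and the capillary endothelium are regarded as main targets of radiation injury, and thoracic irradiation of C57BL/6 mice is a common model of late pulmonary fibrosis. In whole-lung suspensions, fewer cells of a type and less RNA per cell cannot be told apart, which holds for every value below.

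The irradiated 1-week library held 13268269 fragments before the authors' scaling, against 16110920 in the 1-week control and 8679551 to 17473116 over all 10 libraries. Globin transcripts of red cells took 6.57% of counts in the irradiated pool against 6.67% in the 1-week control, and as little as 0.8% in another control. Mitochondrially encoded transcripts took 1.28% of counts in the irradiated pool, under the 1.48% to 2.16% of the 5 controls. Short transcripts were also less abundant in it. Protein-coding genes whose longest annotated transcript is under 1000 bases, ribosomal protein genes left out, lay at a median log2 difference of −0.28 from the mean of the 5 controls (590 genes), while those over 3000 bases lay at 0.13 (7982 genes). The same median of short genes was between −0.09 and 0.11 in the single control pools. Of all protein-coding genes with transcripts over 3000 bases 28.6% lay above all 5 controls and 12.2% below, against 6.87% above and 46.6% below for those under 1000 bases. Markers of lung cell types were present as the label implies, with the surfactant gene Sftpc at 43780 CPM (the usual unit of counts relative to library size, here with TMM factors) in the irradiated pool and 22210 CPM in the 1-week control.

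Against the 5 control pools, edgeR's quasi-likelihood test called 3 genes higher and 0 lower in the irradiated pool at an adjusted p under 0.05, which is 0.0192% of the genes tested. All 3 stand on the list of p53 targets used here, which was chosen with earlier results of these data known. At an unadjusted p under 0.05 there were 1468 genes, of which 788 were higher. DESeq2, run on the same groups, called 95 genes higher (0.608%) and 134 lower (0.858%), with all 3 edgeR genes among them. Control pools tested in the same way, each against the other 4, gave 0 calls for 4 of them and 1 for the 12-week control. At an unadjusted p under 0.05 they gave from 344 genes for the 24-hour control to 1049 for the 32-week and 1487 for the 12-week control, so that the irradiated pool's 1468 is within the numbers seen between unirradiated pools, and the unadjusted counts of the lists are descriptions. Only the 12-week control gave more such genes than the irradiated pool, and it was the library with the fewest fragments before scaling. These control fits held the 5 controls alone, unlike the main fit of 10 libraries, so the numbers compare only roughly. The irradiated pool lay above all 5 controls for 3534 genes (22.6%) and below all 5 for 2933 (18.8%). With scaling by total counts in place of TMM these shares were 15.6% above and 25.1% below. The median log2 difference between the irradiated pool and the 1-week control was 0.03 over all genes tested, or −0.02 under total scaling. Genes named below from a list were largely picked for a small p or after their values were seen. Their place outside the controls is thus a description and no further support for the list.

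Cdkn1a, the gene of the cyclin-dependent kinase inhibitor p21, rose most among the 3 (ENSMUSG00000023067, GRCm38 chromosome 17, 29090976 to 29100727, plus strand). Its level was 275 CPM in the irradiated pool, against 72.7 CPM in the 1-week control and 75, 58.9, 48.3 and 68.4 CPM in the controls of 24 hours and 4, 12 and 32 weeks. The irradiated pool stood at 3.77 times its matched control and far outside the control range, with a log2 fold over the 5 controls of 2.09 ± 0.20 (SE; edgeR adjusted p = 0.0211). Phlda3, which encodes a small repressor of Akt signalling (ENSMUSG00000041801, chromosome 1, 135766119 to 135769136, plus strand), had 105 CPM in the irradiated pool, against 32.8 CPM in the 1-week control and 35.5 to 39.6 CPM in the other 4. Its controls spanned a narrow range, and its log2 fold was 1.52 ± 0.16 (SE; edgeR adjusted p = 0.0213). Ephx1, which encodes the microsomal epoxide hydrolase that detoxifies reactive epoxides (ENSMUSG00000038776, chromosome 1, 180976210 to 181020904, minus strand), had 344 CPM in the irradiated pool, against 134 CPM in the 1-week control and 122 to 150 CPM in the others. Its log2 fold was 1.31 ± 0.16 (SE; edgeR adjusted p = 0.0485). No control pool came near the irradiated level of any of these genes, but the calls depended on the settings. Scaling by total counts ended all 3, as did leaving out the 1-week, the 4-week or the 32-week control, or fitting age as a covariate. Without the 24-hour control Cdkn1a alone of them passed, and without the 12-week control Cdkn1a and Phlda3 did, among 8 genes called in all. Both limma fits also ended the call of Phlda3. Ephx1 was the least firm, with its call kept only by DESeq2 and without a filter among the 14 alternatives, at adjusted p between 0.0502 and 0.205 in the other 12. The log2 folds of all 3 stayed positive under each alternative tried, from 1.99 to 2.16 for Cdkn1a, 1.42 to 1.54 for Phlda3 and 1.21 to 1.41 for Ephx1.

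The window upstream of Cdkn1a is shown because this gene had the largest log2 fold of the 3 that passed. The window runs from 250 bases before to 50 bases after the first annotated start in RefSeq (build GRCm38.p6, chr17:29090729-29091028, plus strand), and the capitals mark a stretch that matches a pair of 10-base p53 consensus sites with a spacer of at most 13 bases.
Cdkn1a: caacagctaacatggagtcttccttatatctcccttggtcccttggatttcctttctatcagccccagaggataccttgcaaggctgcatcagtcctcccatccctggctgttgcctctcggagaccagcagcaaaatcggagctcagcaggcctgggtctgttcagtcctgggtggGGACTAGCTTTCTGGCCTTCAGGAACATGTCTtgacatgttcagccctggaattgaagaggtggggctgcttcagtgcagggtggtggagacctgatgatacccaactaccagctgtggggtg
The match covers 32 bases and begins 73 bases before that start, which itself lies 2790 bases upstream of the next annotated start of the gene. Searched on both strands, such a pair was found in 24 of 32851 mouse promoter windows (0.0731%). By gene it was found in 20 of 27025 with a window (0.074%), and in 1 of the 30 listed p53 target genes with one. The 10 bases that follow the capitals differ from the searched consensus only in their first base, and so stayed in lower case. The match is of letters and not measured binding, and other p53 elements of the gene may overlap this stretch or lie elsewhere.

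**Figure D1:**
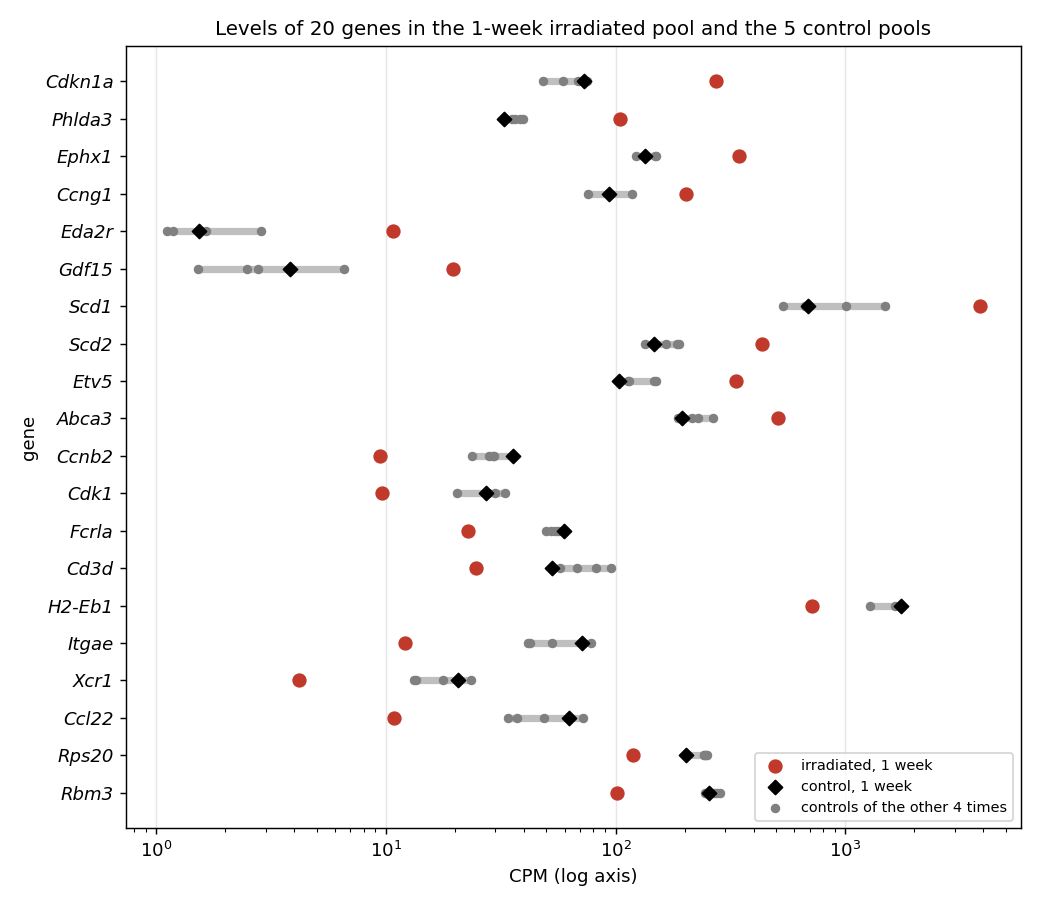
Levels of 20 genes in CPM on a log axis, with the 1-week irradiated pool as a red circle, the 1-week control as a black diamond, and the other 4 controls as small grey circles joined by a bar that spans all 5 controls. Cdkn1a, at 275 CPM in the irradiated pool against at most 75 CPM in any control, and Xcr1, at 4.19 CPM against at least 13.2 CPM, both lie clear of the bar.

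Of the 40 p53 targets listed, all measured, 3 rose and the irradiated pool lay above all 5 controls for 21 and below for 2 (18 and 6 under scaling by total counts). Since the list was chosen with earlier results of these data known, these counts are no independent support for a rise of p53 targets. The median log2 difference from the 1-week control was 0.34. DESeq2 called 7 higher and 0 lower. Among those that did not pass edgeR's test, Eda2r, which encodes a death receptor of the TNF receptor family, had 10.7 CPM in the irradiated pool, against 1.54 CPM in the 1-week control and 1.11 to 2.86 CPM over the 5 controls (adjusted p = 0.153). Gdf15, a stress-induced cytokine gene, had 19.5 CPM against 3.81 CPM and a control range of 1.53 to 6.58 CPM (adjusted p = 0.192). Ccng1, which encodes cyclin G1, a partner in the feedback on p53, had 203 CPM against 94 CPM, with 75.9 to 117 CPM over the controls (adjusted p = 0.176). For each of these the irradiated pool and the controls did not overlap. The feedback ubiquitin ligase gene Mdm2 differed less, with 81.3 CPM against 61 CPM and a control range of 53.3 to 67.3 CPM. Other growth arrest and stress genes above every control were Zmat3 (10.5 against 4.86 CPM), the kinase gene Plk2 (79.9 against 42.7 CPM), Sesn2 (39.2 against 23.9 CPM) and the exonuclease gene Aen (36 against 26 CPM). The proapoptotic gene Bax, at 106 against 77.4 CPM, also lay above the controls. In contrast Bbc3 and Pmaip1, which encode the proapoptotic proteins Puma and Noxa, lay within the control range, as did the death receptor gene Fas and the repair gene Ddb2. Sesn1 lay below all controls, at 59.6 against 75.8 CPM.

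Genes of cell division were lower in the irradiated lung, although none passed edgeR's test. Of 50 measured genes of mitosis and the spindle, 35 lay below all 5 controls and 0 above, with a median log2 difference of −0.87 from the 1-week control. At an unadjusted p under 0.05, edgeR gave 25 of them lower, and DESeq2 called 8. Ccnb2, which encodes cyclin B2, had 9.39 CPM in the irradiated pool, against 35.7 CPM in the 1-week control and 23.8 to 29.6 CPM in the others (edgeR adjusted p = 0.176). Cdk1, the kinase that cyclin B activates at entry into mitosis, had 9.64 CPM against 27.4 CPM and a control range of 20.5 to 32.9 CPM (adjusted p = 0.192). The spindle assembly factor gene Tpx2 had 11.9 CPM against 26.6 CPM, and Cdca3, a trigger of mitotic entry, 4.61 CPM against 14.9 CPM. All 4 lay well below the lowest control, which followed largely from their choice as the 4 smallest p of the list. The cyclin B1 gene Ccnb1 had 11.2 CPM against 21.5 CPM, also below every control, whereas the proliferation marker Mki67, at 14.9 against 21.3 CPM, lay inside a wide control range of 9.76 to 40.2 CPM.

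The promoter windows of Ccnb2 and Cdk1 are shown for the motifs that mitotic promoters are known to share, the cell cycle homology region TTTGAA and the CCAAT box, both in capitals and both searched on each strand, where a CCAAT box on the other strand reads ATTGG (RefSeq, GRCm38.p6; Ccnb2 at chr9:70421505-70421804 and Cdk1 at chr10:69352863-69353162, both on the minus strand and read along the gene).
Ccnb2: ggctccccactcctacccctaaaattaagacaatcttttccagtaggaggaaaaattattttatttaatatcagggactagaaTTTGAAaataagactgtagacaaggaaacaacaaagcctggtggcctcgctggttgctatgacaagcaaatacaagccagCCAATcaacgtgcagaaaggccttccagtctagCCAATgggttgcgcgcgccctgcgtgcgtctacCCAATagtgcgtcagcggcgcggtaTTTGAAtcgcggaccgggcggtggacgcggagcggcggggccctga
Cdk1: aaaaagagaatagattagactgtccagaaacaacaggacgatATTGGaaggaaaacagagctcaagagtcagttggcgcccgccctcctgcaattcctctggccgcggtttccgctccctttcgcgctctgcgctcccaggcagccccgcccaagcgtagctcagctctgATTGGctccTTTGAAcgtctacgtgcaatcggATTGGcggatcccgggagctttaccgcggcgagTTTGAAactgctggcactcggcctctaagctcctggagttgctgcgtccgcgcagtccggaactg
TTTGAA occurred in the windows of 31 of 43 mitosis genes with a window, against 20.2% of all genes with one and 17.9% of all windows. The CCAAT box occurred in 33 of the 43, against 41.1% of all genes and 37.4% of all windows. These are matches of letters and not measured binding.

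DNA replication genes followed the same direction. Of 50 measured, 36 lay below all controls and 1 above, at a median log2 difference of −0.56. None passed edgeR's test, 18 were lower at an unadjusted p under 0.05, and DESeq2 called 2. Rrm2, the small subunit gene of ribonucleotide reductase, had 22.1 CPM in the irradiated pool, against 49.3 CPM in the 1-week control and 41 to 67.9 CPM over all 5 (edgeR adjusted p = 0.228). Mcm7, part of the replicative helicase, had 43.7 CPM against 76.9 CPM, and the primase gene Prim1 5.45 CPM against 16.4 CPM. Both lay below every control. Of 29 genes of homologous recombination and the Fanconi pathway, which act mostly in dividing cells, 14 lay below all controls and 2 above (median −0.32). Brca1 had 1.51 CPM against 3.4 CPM, and Rad51ap1, a cofactor of strand exchange, 1.17 CPM against 4.7 CPM. Of 25 genes of end joining and damage signalling, 5 lay below (20%, close to the 18.8% of all genes tested) and 2 above (8%, against 22.6%). Their median was −0.19, or −0.06 from the mean of the 5 controls. Under scaling by total counts 9 lay below and 1 above (36% and 4%, against 25.1% and 15.6% of all genes tested). The checkpoint kinase gene Chek1 was among the 5 below, at 0.503 CPM (6 counts) against 3.24 CPM. edgeR and DESeq2 called 0 genes of either repair list, and 5 and 2 were lower at an unadjusted p under 0.05.

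Genes of antigen presentation by MHC class II were lower in the irradiated lung as a group. All 10 measured lay below all 5 controls, with a median log2 difference of −1.09 and a range from −1.32 to −0.64. edgeR called 0 of the 10 after adjustment, 8 were lower at an unadjusted p under 0.05, and DESeq2 called 7. H2-Eb1, a class II beta chain gene, had 717 CPM in the irradiated pool, against 1756 CPM in the 1-week control and 1278 to 1735 CPM in the others (edgeR adjusted p = 0.192). The alpha chain gene H2-Aa had 1174 CPM against 2576 CPM and a control range of 1832 to 2848 CPM (adjusted p = 0.248). The gap to the lowest control was wide for both. H2-Oa and H2-Ob, whose products form the regulator H2-O found mainly in B cells, had 16.1 against 40 CPM and 55.3 against 139 CPM. The master regulator gene Ciita had 41.2 CPM against 81.6 CPM, only just under the lowest control at 45.5 CPM.

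The proximal promoters of H2-Eb1 and H2-Aa are shown because class II promoters share a Y box, here searched as CTGATTGG on both strands and set in capitals (RefSeq, GRCm38.p6; H2-Eb1 at chr17:34305617-34305916 on the plus strand, H2-Aa at chr17:34287774-34288073 on the minus strand). Any CTGATTGG also contains a CCAAT box on the other strand.
H2-Eb1: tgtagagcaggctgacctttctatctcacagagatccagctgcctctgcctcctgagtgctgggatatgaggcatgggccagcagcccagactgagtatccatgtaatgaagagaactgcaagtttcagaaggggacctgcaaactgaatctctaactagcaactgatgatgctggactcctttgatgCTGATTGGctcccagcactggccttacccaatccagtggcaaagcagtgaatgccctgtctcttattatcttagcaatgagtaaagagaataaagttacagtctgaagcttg
H2-Aa: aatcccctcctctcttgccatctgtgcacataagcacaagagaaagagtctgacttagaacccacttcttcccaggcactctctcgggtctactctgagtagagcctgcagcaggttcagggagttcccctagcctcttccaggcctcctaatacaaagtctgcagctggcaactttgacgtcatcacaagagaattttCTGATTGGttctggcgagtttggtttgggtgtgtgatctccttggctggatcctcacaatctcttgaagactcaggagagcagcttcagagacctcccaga
The 8 letters were present in 3 of the 7 listed class II genes with a window, against 4.7% of all genes with one and 4.1% of all windows, and they begin 62 bases before the start in H2-Eb1 and 51 bases before it in H2-Aa.

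Markers of dendritic cells, which depend on class II, were lower too. Of 16 measured, 10 lay below all controls and 0 above, with a median log2 difference of −1.08. edgeR called 0 after adjustment and 7 at an unadjusted p under 0.05, all lower, and DESeq2 called 4. Itgae, the CD103 integrin chain of lung conventional dendritic cells and some T cells, had 12.2 CPM in the irradiated pool, against 71.6 CPM in the 1-week control and 41.8 to 78 CPM over all 5 (edgeR adjusted p = 0.176). Xcr1, the chemokine receptor gene of cross-presenting dendritic cells, had 4.19 CPM against 20.6 CPM, with a control range of 13.2 to 23.5 CPM (adjusted p = 0.192). The chemokine gene Ccl22, made by mature dendritic cells, had 10.9 CPM against 62.7 CPM, with 33.9 to 72.3 CPM over the controls (adjusted p = 0.192). None of these levels overlapped with a control. Cd207, which encodes langerin of Langerhans cells and lung CD103+ dendritic cells, had 0.755 CPM against 16.4 CPM, and Il12b, the shared p40 chain of interleukins that dendritic cells secrete, 0.922 CPM against 6.89 CPM. Clec9a and Flt3, also dendritic genes, lay below all controls, at 3.94 against 9.49 CPM and 20.6 against 58 CPM. Cd209a and Clec10a, which are linked to the other conventional dendritic subset, lay within the controls, at 107 against 139 CPM and 19.9 against 24.5 CPM.

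Lymphocyte markers lay on the same side. Of 25 T cell markers 23 lay below all controls and 0 above, with a median log2 difference of −1.01. Cd3d, a chain of the T cell receptor complex, had 24.6 CPM in the irradiated pool, against 52.7 CPM in the 1-week control and up to 95.3 CPM in the others (edgeR adjusted p = 0.206). Cd3e had 30.4 CPM against 58.4 CPM, the coreceptor gene Cd8b1 33 CPM against 85.1 CPM, and Cd4 22.1 CPM against 33.3 CPM. The exceptions among the 25 were Foxp3 and Ctla4, which mark regulatory T cells and lay within the control range at 4.78 against 3.73 CPM and 1.59 against 4.13 CPM. Of 19 B cell markers 15 lay below all controls and 0 above (median −0.88). Fcrla, a Fc receptor-like gene of B cells, had 22.9 CPM against 59.8 CPM and a control range of 49.9 to 59.8 CPM (adjusted p = 0.153), and Cd79a, a signalling chain of the B cell receptor, 191 CPM against 376 CPM. Neither overlapped with a control. edgeR called 0 members of either list, 16 T cell and 10 B cell markers were lower at an unadjusted p under 0.05, and DESeq2 called 5 and 4 lower. Of 15 natural killer markers Xcl1 and Nkg7 lay below all controls (13.3%, against 18.8% of all genes tested) and the other 13 within them. Their median was −0.56, edgeR and DESeq2 called 0, and 0 had an unadjusted p under 0.05.

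Transcripts of developing T cells, which come from the thymus and would be in the field of a thoracic beam, varied widely between controls. Of 6 thymocyte markers 5 lay below all controls. Rag1, the recombinase gene that rearranges antigen receptors, had 0 counts in the irradiated pool against 4.13 CPM in the 1-week control, at least 16.4-fold lower at a floor of 3 counts in the irradiated library. The other controls held from 4.87 to 123 CPM, so the 1-week control was itself the lowest of the 5. edgeR called 0 of these genes and 2 were lower at an unadjusted p under 0.05, while DESeq2 called 2. Of 12 plasma cell genes 3 lay above all controls (25%, against 22.6% of all genes tested) and 4 below (33.3%, against 18.8%). Compared with the 1-week control 9 were lower and 3 higher, at a median log2 difference of −0.71. Jchain, which links polymeric antibodies, had 27.2 CPM against 91.2 CPM, Mzb1, a chaperone of antibody secretion, 16.3 CPM against 34.4 CPM, and Sdc1, which epithelial cells also express, 185 CPM against 88.1 CPM. edgeR called 0 of them, and DESeq2 called 1, which was higher. Genes of MHC class I presentation, present in nearly all cells, lay below all controls for 11 of 17 and above for 0 (median −0.40). The immunoproteasome gene Psmb8 had 232 CPM against 364 CPM, and edgeR and DESeq2 called 0, with 2 lower at an unadjusted p under 0.05.

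**Figure D2:**
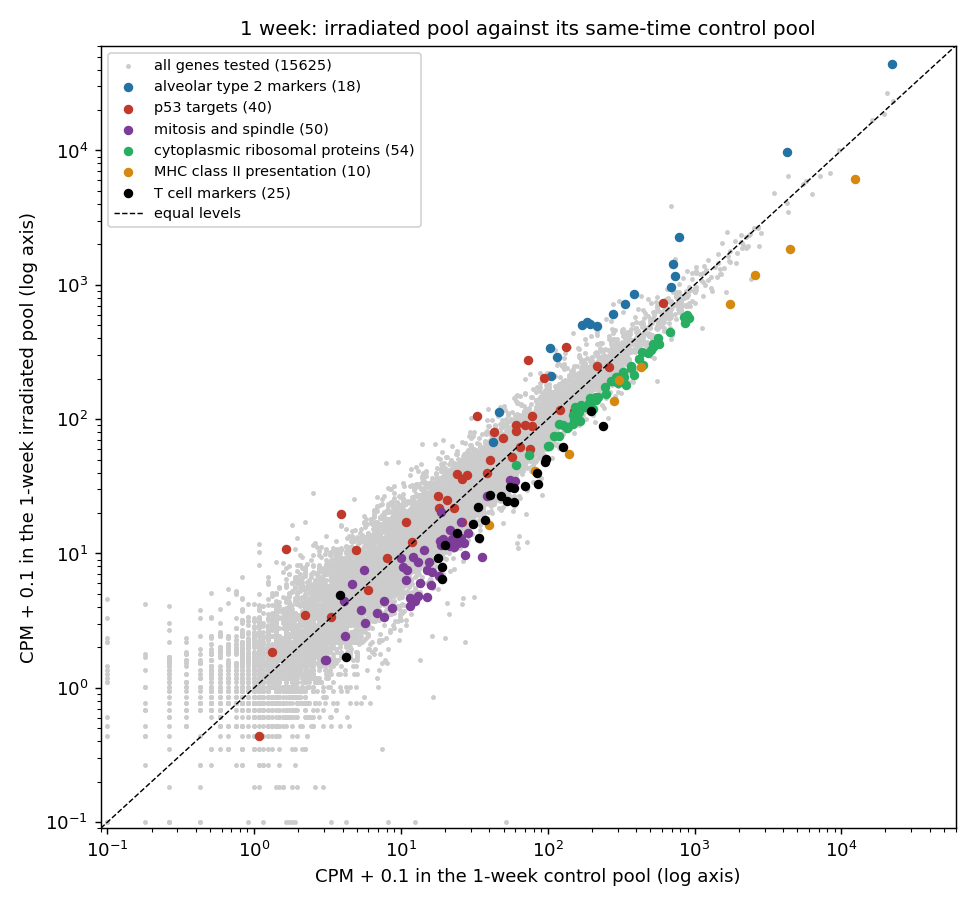
Each point is a gene, at its CPM + 0.1 in the 1-week control pool (horizontal, log axis) and in the 1-week irradiated pool (vertical, log axis), with the dashed line at equal levels. The 18 alveolar type 2 markers lie above the line, and the 10 MHC class II and the 54 ribosomal protein genes lie below it.

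Alveolar type 2 cell genes were higher in the irradiated lung. Of 18 markers 16 lay above all 5 controls and 0 below, with a median log2 difference of 1.17 and a range from 0.50 to 1.70. edgeR called 0 after adjustment, 16 were higher at an unadjusted p under 0.05, and DESeq2 called 9. Etv5, a transcription factor gene that maintains type 2 cell identity, had 336 CPM in the irradiated pool, against 103 CPM in the 1-week control and 113 to 150 CPM in the others (edgeR adjusted p = 0.0803). Abca3, the lipid transporter of lamellar bodies, had 509 CPM against 195 CPM, with a control range of 187 to 266 CPM (adjusted p = 0.1). Both lay above every control, and neither passed. The surfactant protein gene Sftpc had 43780 CPM against 22210 CPM, with up to 32380 CPM in the 24-hour control. Sftpa1 had 9685 CPM against 4247 CPM, the phosphate transporter gene Slc34a2 2282 CPM against 782 CPM, and the lysosomal gene Lamp3 529 CPM against 185 CPM. The 2 markers within the control range were S100g, at 66.9 against 42.2 CPM, and Sftpb, at 496 against 216 CPM. The summed level of the 18 was 64550 CPM in the irradiated pool, against 31550 CPM in the 1-week control and 25890 to 46400 CPM over all controls.

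Transcripts of many lipid synthesis genes, which serve a main task of type 2 cells, also lay above the controls, although edgeR called none of them. Of 20 genes of fatty acid synthesis 15 lay above all controls and 1 below, at a median log2 difference of 0.70. Transcripts of 15 of the 20 are over 3000 bases long, a class that was higher across the library. The part of length in this result was not tested. edgeR called 0, with 13 higher and 1 lower at an unadjusted p under 0.05, and DESeq2 called 6 higher. Fasn and Lpcat1 stand on this list and on that of type 2 markers. Scd1, which encodes a stearoyl-CoA desaturase, had 3859 CPM in the irradiated pool, against 691 CPM in the 1-week control and 539 to 1487 CPM over all 5 (edgeR adjusted p = 0.176). Its paralog Scd2 had 436 CPM against 148 CPM, with a narrower control range of 134 to 189 CPM (adjusted p = 0.0614). Fatty acid synthase, Fasn, had 501 CPM against 170 CPM, and Elovl1, an elongase of very long chains, 625 CPM against 326 CPM. All 4 lay above the highest control. Dgat2, which makes storage triglyceride, was the exception below all controls, at 27.7 against 53.9 CPM. Of 21 genes of cholesterol synthesis and uptake 10 lay above all controls and 0 below (median 0.24), and DESeq2 called 1 higher while edgeR called 0 and 3 were higher at an unadjusted p under 0.05. Of 32 antioxidant and Nrf2 target genes 10 lay above and 1 below (median 0.23). Their median was 0.07 from the mean of the 5 controls, inside the −0.10 to 0.09 of the single controls and near the 0.04 of all genes, and under scaling by total counts 7 lay above and 3 below. Ephx1, which also stands on that list, rose, and Gclc, for the rate-limiting step of glutathione synthesis, had 253 CPM against 129 CPM (adjusted p = 0.158). DESeq2 called 3 of that list higher, and 4 were higher at an unadjusted p under 0.05.

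Alveolar type 1 cells, which form the gas exchange surface, showed a similar pattern with 8 of 14 markers above all controls and 0 below (median 0.86). Under scaling by total counts 6 lay above and 0 below. Transcripts of 8 of the 14 are over 3000 bases long, and the part of length was not tested. Cldn18, a tight junction gene shared by type 1 and type 2 cells, had 220 CPM in the irradiated pool, against 98.5 CPM in the 1-week control and 84.3 to 135 CPM over all 5. The water channel gene Aqp5 had 117 CPM against 51 CPM, and Ager, for the receptor of advanced glycation end products, 444 CPM against 216 CPM. These did not overlap with the controls, whereas Hopx and Pdpn lay within the control range, at 82.9 against 67.1 CPM and 7.8 against 5.27 CPM. edgeR called 0 of the type 1 markers, 4 were higher at an unadjusted p under 0.05, and DESeq2 called 3. Of 10 markers of transitional epithelium, which type 2 cells pass through as they become type 1 cells, 5 lay above all controls (median 0.27), or 3 under scaling by total counts, with Krt8 at 168 against 117 CPM and hardly above the highest control. edgeR and DESeq2 called 0 of these, with 2 higher at an unadjusted p under 0.05.

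Many endothelial genes lay above the controls too. Of 24 markers 14 lay above all controls and 1 below, with a median log2 difference of 0.50, and under scaling by total counts 8 lay above and 1 below. Transcripts of 14 of the 24 are over 3000 bases long, the class that was higher across the library, and the part of length in this result was not tested. Kdr, the main receptor of vascular endothelial growth factor, had 210 CPM in the irradiated pool, against 111 CPM in the 1-week control and 63.6 to 139 CPM over all 5 (edgeR adjusted p = 0.391). Plvap, for a protein of capillary fenestrae and caveolae, had 289 CPM against 164 CPM. Vegfa, which encodes the ligand of Kdr and was listed with the type 1 markers, had 46.6 CPM against 18.6 CPM. Lyve1, a gene of lymphatic endothelium and of some macrophages, had 151 CPM against 61.8 CPM. Pecam1, Cdh5 and Vwf, which are common to most endothelium, lay within the control range, at 194 against 162 CPM, 55.7 against 37.6 CPM and 151 against 110 CPM. edgeR called 0 members of the list, 5 were higher at an unadjusted p under 0.05, and DESeq2 called 1.

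Genes of the matrix were divided, with Col1a1 and Col3a1 within the control range and several basement membrane genes above it. Col1a1 and Col3a1, the main interstitial collagen genes, had 222 against 199.7 CPM and 1222 against 1147 CPM in the irradiated pool and the 1-week control, inside control ranges of 97.8 to 306 CPM and 414 to 1272 CPM. Tgfb1, for the main profibrotic growth factor, had 59.3 CPM against 60.6 CPM, also within the controls. Of 50 genes of collagens and matrix 25 lay above all controls and 0 below, at a median log2 difference of 0.44, and under scaling by total counts 22 lay above. Transcripts of 44 of the 50 are over 3000 bases long, and the part of length in this result was not tested either. Col4a1, a collagen IV chain of basement membranes, had 252 CPM against 116 CPM, and the laminin chain genes Lamc1 and Lamb1 had 86.4 against 47.6 CPM and 66.4 against 32.8 CPM. Fn1, which encodes fibronectin and is also made by macrophages, had 826 CPM against 434 CPM, with 434 to 599 CPM over the controls. All 4 lay above the highest control. edgeR and DESeq2 called 0 matrix genes, and 12 were higher at an unadjusted p under 0.05. Of 30 genes of the TGF beta pathway 12 lay above all controls and 2 below (median 0.36, or 0.25 from the mean of the 5 controls). Under scaling by total counts 8 lay above and 3 below. Transcripts of 27 of the 30 are over 3000 bases long, and the part of length was not tested. The receptor gene Tgfbr2 was at 394 against 297 CPM and the inhibitory Smad6 at 52.5 against 20.3 CPM. Both tools called 0 of that list, with 4 higher and 1 lower at an unadjusted p under 0.05.

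Stromal lists differed in their counts. Of 22 fibroblast markers 2 lay above all controls and 0 below (median 0.19), and 0 had an unadjusted p under 0.05 in edgeR's test, with 0 called by either tool. Of 15 smooth muscle and pericyte markers 5 lay above (33.3%, against 22.6% of all genes tested), or 3 under scaling by total counts (20%, against 15.6%). Their median was 0.01, or 0.40 from the mean of the 5 controls. Both tools called 0 of them, and 1 was higher at an unadjusted p under 0.05. Mesothelial markers, from the lung surface, lay above all controls for 7 of 10 (median 0.73), with Msln, for mesothelin, at 126 against 68.5 CPM. That count was 4 under scaling by total counts, both tools called 0, and 2 were higher at an unadjusted p under 0.05. Cardiac muscle markers were low in both pools, with a summed level of 65.7 CPM in the irradiated pool against 86.4 CPM in the 1-week control, 3 of 11 below all controls, 0 called by either tool and 0 at an unadjusted p under 0.05.

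Inflammatory genes gave a mixed picture at 1 week. Of 43 interferon-stimulated genes 12 lay above all controls (27.9%, against 22.6% of all genes tested) and 4 below (9.3%, against 18.8%). Their median log2 difference was −0.03. Under scaling by total counts 9 lay above (20.9%, against 15.6%) and 11 below (25.6%, against 25.1%). Both tools called 0, with 1 lower at an unadjusted p under 0.05. Ifit3, a typical member, had 31.8 CPM in the irradiated pool, against 24.5 CPM in the 1-week control and 20.3 to 26.9 CPM over all 5 (edgeR adjusted p = 0.547). Of 28 chemokine genes 5 lay above (17.9%) and 6 below (21.4%), near the 22.6% and 18.8% of all genes tested (median 0.06). The monocyte attractant gene Ccl2 had 5.62 CPM against 5.59 CPM, within the controls, while Ccl17 and Ccl5, which attract T cells, lay below all controls, at 22.3 against 58.5 CPM and 84.8 against 130 CPM. Cxcl15, known as lungkine and made by lung epithelium, lay above, at 724 against 338 CPM. edgeR called 0 chemokines, with 2 higher and 3 lower at an unadjusted p under 0.05, and DESeq2 called 2 lower. Of 28 cytokine and acute phase genes 9 lay above all controls (32.1%, against 22.6% of all genes tested) and 4 below (14.3%, against 18.8%), at a median of 0.12. Il33, an alarmin gene of type 2 and endothelial cells, had 143 CPM against 58.8 CPM, and Ptgs2, the inducible cyclooxygenase, 9.31 CPM against 3.73 CPM. Il1b and Tnf, which encode classical inflammatory cytokines, lay within the controls, at 74.3 CPM in both pools and at 3.44 against 3.24 CPM. For this list edgeR called 0, DESeq2 called 1 lower, and at an unadjusted p under 0.05 there were 5 higher and 2 lower.

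Of 37 genes of senescence and its secretory phenotype 1 rose, Cdkn1a. In this list 13 lay above all controls (35.1%, against 22.6% of all genes tested) and 6 below (16.2%, against 18.8%). Under scaling by total counts 10 lay above and 7 below (27% and 18.9%, against 15.6% and 25.1%). The median was 0.18, or 0.13 under that scaling. Icam1, an adhesion molecule, was at 209 against 156 CPM. DESeq2 called 2 genes of the list higher. The senescence gene Cdkn2a did not pass the filter on low counts and was not tested. Complement genes lay above all controls for 11 of 21 and below for 0 (median 0.25). C4b, of the classical pathway, had 420 CPM in the irradiated pool, against 216 CPM in the 1-week control and 207 to 264 CPM over all 5 (edgeR adjusted p = 0.192), and edgeR called 0, with 4 higher at an unadjusted p under 0.05 and 2 higher by DESeq2. Of 18 coagulation genes 8 lay above and 1 below (median 0.29), with F13a1, for factor XIII of macrophages and platelets, at 415 against 196 CPM, 0 called by edgeR, 3 higher at an unadjusted p under 0.05 and 1 by DESeq2. Immediate early and heat shock genes, which respond to handling of tissue, had a median of 0.01. Of these 26 genes 5 lay above all controls (19.2%, against 22.6% of all genes tested) and 2 below (7.69%, against 18.8%). Both tools called 0 of them, and 2 were higher at an unadjusted p under 0.05.

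Among myeloid cells, of 27 markers of monocytes and interstitial macrophages 13 lay above all controls (48.1%, against 22.6% of all genes tested) and 2 below (7.41%, against 18.8%), at a median of 0.17 from the 1-week control and 0.45 from the mean of the 5 controls. Cx3cr1, the fractalkine receptor gene, had 165 CPM in the irradiated pool, against 103 CPM in the 1-week control and 65.7 to 103 CPM over all 5 (edgeR adjusted p = 0.197). edgeR called 0 of these, 7 were higher at an unadjusted p under 0.05, and DESeq2 called 3 higher. Of 22 alveolar macrophage markers 8 lay above (36.4%, against 22.6% of all genes tested) and 4 below (18.2%, against 18.8%), at a median of 0.10. Under scaling by total counts 6 lay above and 4 below (27.3% and 18.2%, against 15.6% and 25.1%). Their median of 0.16 from the mean of the 5 controls was within the −0.34 to 0.24 of the single controls. The scavenger receptor gene Marco had 285 CPM against 128 CPM, with 88 to 170 CPM over the controls, whereas the fatty acid binding protein gene Fabp4 lay below all controls, at 20.6 against 28.3 CPM. edgeR called 0, with 3 higher at an unadjusted p under 0.05, and DESeq2 called 1. Of 16 neutrophil markers 3 lay above (18.8%, against 22.6% of all genes tested) and 2 below (12.5%, against 18.8%), at a median of −0.02. Under scaling by total counts 3 lay above and 4 below. Among these markers Csf3r, for the receptor of the granulocyte growth factor, was at 103 against 68.9 CPM, and the secondary granule gene Ltf at 19.5 against 70.9 CPM. edgeR called 0 of them, 3 were higher and 1 lower at an unadjusted p under 0.05, and DESeq2 called 1 lower. Mast cell, basophil and eosinophil markers lay above all controls for 3 of 14 (21.4%, against 22.6% of all genes tested) and below for 6 (42.9%, against 18.8%). Their median was −0.54, with the mast cell protease gene Cpa3 at 3.1 against 6.41 CPM. Both tools called 0 of them, and 1 was higher and 3 lower at an unadjusted p under 0.05.

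**Figure D3:**
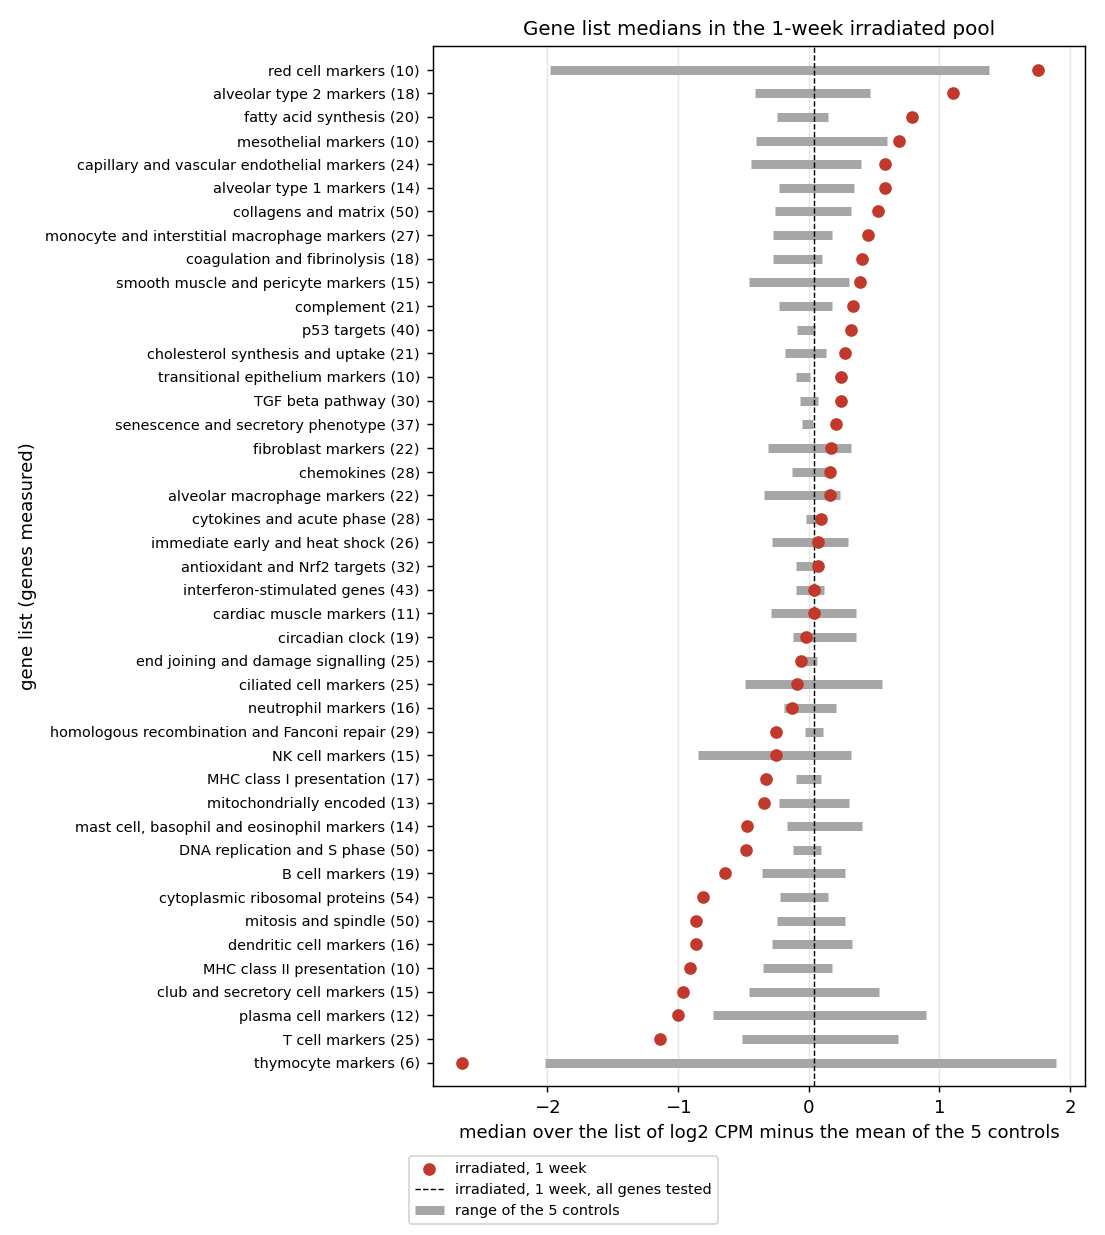
Median of each gene list, as log2 CPM minus the mean of the 5 controls, in the 1-week irradiated pool (red circles), with a grey bar for the range of the same median over the 5 single controls and a dashed line for all genes tested in the irradiated pool. The alveolar type 2 markers lie at 1.10, the MHC class II genes at −0.91 and the T cell markers at −1.14, each outside its bar, while the interferon-stimulated genes, at 0.04, lie within theirs.

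Airway secretory genes were mostly at or below the lowest control. Of 15 club and secretory cell markers 9 lay below all controls and 1 above, at a median log2 difference of −0.48. Bpifa1, which encodes an antimicrobial secretory protein of the upper airways, had 192 CPM in the irradiated pool, against 555 CPM in the 1-week control and 353 to 672 CPM over all 5 (edgeR adjusted p = 0.225). The main club cell secretoglobin gene Scgb1a1 had 2702 CPM against 2700 CPM, while the other controls held 3156 to 11260 CPM, so both 1-week pools were at the low end. edgeR called 0 of these, with 1 higher and 3 lower at an unadjusted p under 0.05, and DESeq2 called 2 lower. Ciliated cell markers lay above all controls for 0 of 25 and below for 2, at a median of 0.33 from the 1-week control, the lowest of the 5 for their summed level, and of −0.09 from the mean of all 5, with 0 called by either tool and 0 at an unadjusted p under 0.05.

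Ribosomal protein genes were lower without exception. All 54 measured lay below all 5 controls, with a median log2 difference of −0.59 and a range from −0.91 to −0.32. edgeR called 0 after adjustment, although 54 were lower at an unadjusted p under 0.05, and DESeq2 called 42. Rps20, of the small ribosomal subunit, had 119 CPM in the irradiated pool, against 202 CPM in the 1-week control and up to 250 CPM in the others (edgeR adjusted p = 0.176). Rpl32, of the large subunit, had 214 CPM against 389 CPM, with a control range of 389 to 538 CPM. The longest annotated transcripts of these genes have a median length of 1139.5 bases, and short genes outside the list were lower too, at the median of −0.28 given above. The part of transcript length in the result was not tested. Ribosomal protein genes also have many near-identical pseudogenes, among which the counting may divide fragments. Of 13 mitochondrially encoded genes 7 lay below all controls and 0 above (median −0.12), with 0 called by either tool and 2 lower at an unadjusted p under 0.05.

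Of 19 clock genes 5 lay above all controls (26.3%) and 4 below (21.1%), close to the 22.6% and 18.8% of all genes tested, with a median of 0.11. Npas2, a partner of Bmal1 in the activating arm, had 25.3 CPM in the irradiated pool, against 4.7 CPM in the 1-week control and 4.54 to 9.9 CPM over all 5. Arntl, for Bmal1 itself, and Clock lay above all controls as well, at 40.5 against 27.5 CPM and 36.1 against 24.2 CPM. In the opposite direction, the output gene Dbp had 4.53 CPM against 26.4 CPM, and the repressor gene Nr1d2 20.5 CPM against 36.2 CPM, both below every control. For the list edgeR called 0, with 3 higher and 3 lower at an unadjusted p under 0.05, and DESeq2 called 1 higher and 2 lower. The hour of day at which mice were killed is not given in the sources used here, and its part in this result was not tested. Red cell markers lay above all controls for 8 of 10 (80%, against 22.6% of all genes tested), at a median of 0.42. Their summed level was 71000 CPM in the irradiated pool, against 69220 CPM in the 1-week control and 7565 to 69220 CPM over all 5 controls. Slc4a1, for the band 3 anion exchanger, was at 42.4 against 11.7 CPM. Both tools called 0 of these markers, with 0 at an unadjusted p under 0.05.

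The largest differences from the 1-week control among genes outside the control range and with enough counts were in genes of low level, and none of these passed the test. On the higher side stood Ces2e, a carboxylesterase gene, at 16.9 CPM in the irradiated pool against 2.11 CPM in the 1-week control, and Aldh1l1, for a folate enzyme, at 46.9 against 7.86 CPM. The meiotic gene Tex15 had 16.2 CPM against 1.70 CPM, Cdk18 8.55 CPM against 1.30 CPM, Disp2 10.7 CPM against 1.78 CPM and Gm21985 11.7 CPM against 0.973 CPM. For Aldh1l1, Cdk18 and Disp2 the 1-week control was the lowest of the 5. On the lower side, besides Rag1, Cd207 and Il12b, were Gcsam, a germinal centre gene, at 2.35 against 16.1 CPM, Sept3, a septin gene, at 4.11 against 25.8 CPM, Cyp11a1, for the first enzyme of steroid synthesis, at 0.755 against 5.51 CPM, Gpr141b at 1.51 against 13.4 CPM and the antibody segment gene Igkv4-59 at 2.26 against 19.9 CPM. The pseudogenes Gm2274 and Gm10132 had 0 counts in the irradiated pool against 8.03 and 12.4 CPM in the control, at least 31.9-fold and 49.3-fold lower at a floor of 3 counts, and reads of a pseudogene may be shared with its parent gene. Gm2274 and Cdkn1a were the only genes that limma called on log2(FPKM + 1), at adjusted p = 0.00187 and 0.0259. Outside the naming rule, 2 genes were singled out after their values were seen, because their adjusted p was just over 0.05 in edgeR. Rbm3, a cold-induced RNA-binding protein gene, had 101 CPM against 256 CPM, with 246 to 286 CPM over the controls (adjusted p = 0.0604). Gas6, for a ligand of receptors that mediate clearance of dying cells, had 557 CPM against 251 CPM, with 200.5 to 264 CPM over the controls (adjusted p = 0.0656).

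Against the 24-hour irradiated pool, edgeR called 2 genes in the 1-week irradiated pool, 0.0128% of those tested, 1 higher and 1 lower. Ifit3 fell to 31.8 CPM at 1 week, against 195 CPM at 24 hours, with a log2 difference of −2.61 ± 0.28 (SE; edgeR adjusted p = 0.0224). The 2 control pools of those times had 24.5 and 22.3 CPM, so the difference lay in the irradiated pools. The call of Ifit3 was lost without the 24-hour or the 1-week control, at adjusted p = 0.0634 and 0.0976, leaving 1 gene called, and without the 12-week control 6 genes were called. Limma on log2(FPKM + 0.1) also ended the call of Ifit3. The interferon-stimulated genes as a list were at a median log2 difference of −0.03 from the matched control at 1 week, against 1.25 at 24 hours. The other gene, ENSMUSG00000107057, which the annotation used here does not name, had 106 CPM at 1 week against 3.12 CPM at 24 hours (log2 5.08 ± 0.33 SE; adjusted p = 0.000437), while all 5 controls held 81.1 to 113 CPM, so that the 24-hour pool was the one apart. Cdkn1a, at 275 CPM against 517 CPM, did not differ past the threshold (log2 −0.91 ± 0.30 SE; edgeR adjusted p = 0.999), and neither did Ccl2, at 5.62 against 33.6 CPM (adjusted p = 0.385). Each time has its own control, and the matched median of the p53 targets was 0.34 at 1 week against 0.78 at 24 hours. For mitosis genes it was −0.87 against −2.01, for MHC class II −1.09 against −1.07, and for T cell markers −1.01 against −0.91.

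Against the 4-week irradiated pool, edgeR called 5 genes, 0.032% of those tested, all higher at 1 week. The 3 with a known place in the lung are alveolar macrophage genes. Siglecf, a sialic acid receptor of alveolar macrophages and eosinophils, had 145 CPM at 1 week against 26.9 CPM at 4 weeks (log2 2.43 ± 0.31 SE; edgeR adjusted p = 0.0428). Krt79, a keratin gene that in mouse lung marks alveolar macrophages, had 105 CPM against 12.6 CPM (log2 3.05 ± 0.33 SE; adjusted p = 0.0199), and Ear1, an eosinophil-associated ribonuclease gene with near-identical family members, 142 CPM against 28.2 CPM (log2 2.33 ± 0.29 SE; adjusted p = 0.0428). All 3 were inside or near the range of the controls at 1 week and below every control at 4 weeks. Cpne5, a copine gene, had 39.1 CPM against 6.06 CPM (adjusted p = 0.0199), and ENSMUSG00000107372 had 23 CPM at 1 week and 0 counts at 4 weeks (adjusted p = 0.00501). Calls of Siglecf, Krt79, Ear1 and Cpne5 were all lost without the 1-week, the 12-week or the 32-week control, when 1, 2 and 1 genes were called. The lists that were low at 1 week had other medians at 4 weeks, from each time's own control. The median of mitosis genes was −0.87 at 1 week and 0.26 at 4 weeks, that of MHC class II genes −1.09 and 0.21, and that of dendritic markers −1.08 and 0.54. Alveolar type 2 markers were at 1.17 and 0.70, and ribosomal protein genes at −0.59 and −0.64. No list was tested between times.

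**Figure D4:**
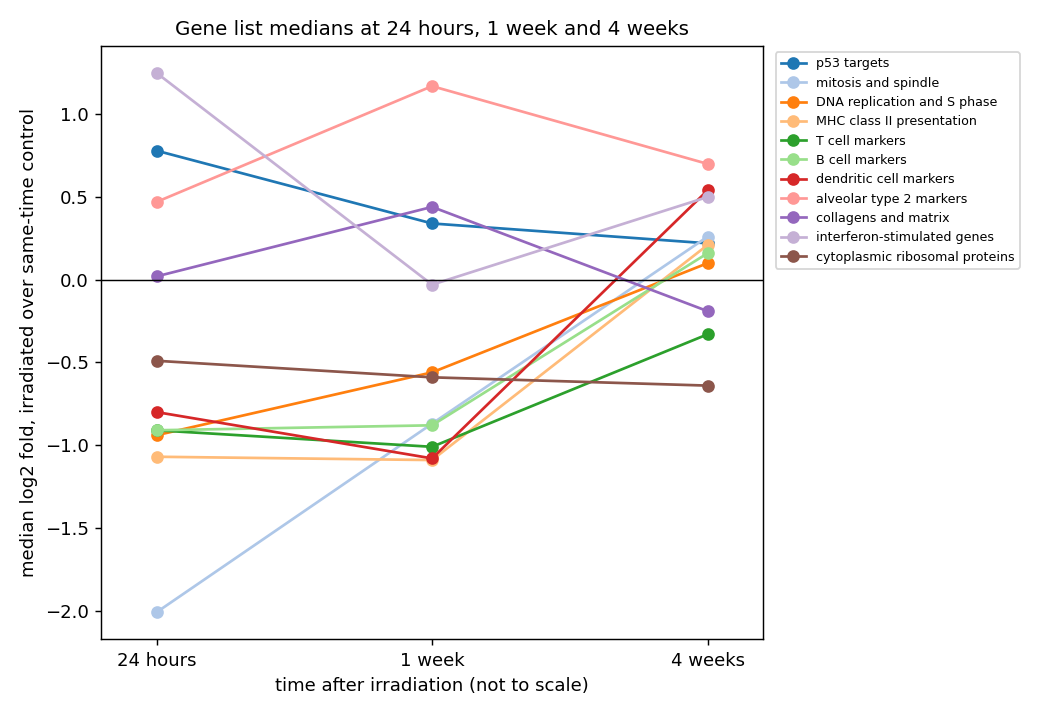
Median log2 fold of 11 gene lists in the irradiated pool over the control pool of the same time, at 24 hours, 1 week and 4 weeks (times not to scale, 1 pool for each point and no error). The MHC class II genes lie at −1.07, −1.09 and 0.21 in time order, and the interferon-stimulated genes at 1.25, −0.03 and 0.50.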

How the data were processed

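Pools of 3 mice were made from whole-lung cell suspensions, and the labels' protocols name Qiagen RNeasy PLUS for RNA, a Clontech ultralow kit for cDNA and Illumina NexteraXT for libraries. Such libraries do not mark the strand and no molecular identifiers are named, so overlapping antisense genes and PCR copies are not separated. The submitters' processing notes list STAR 2.4.2a, Trimmomatic 0.32, Cuffdiff, Cufflinks 2.0.2 and build GRCm38.p4, and the annotation release is not given in the sources used here. Expected counts, which are estimates of the fragments of a gene, and FPKM (the same per kilobase of transcript and per fixed library total) were deposited by the authors for 45786 genes. Low expected counts lay at multiples of a step for each library, 0.944 in the 1-week irradiated pool and 0.778 in its control, as when libraries are put on a common scale; 76.2% to 81.4% of values were multiples within 0.05. Deposited totals were 12528497 in the 1-week irradiated pool, 12534376 in its control and 9983710 to 13509769 over all libraries. GENCODE M21 held 45137 of the identifiers, and the other 649 took at most 0.17% of counts. No library was a copy of another.

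Expected counts were rounded, scaled by TMM and filtered by edgeR 4.0.16 (filterByExpr by treatment, minimum count 10; R 4.3.3), leaving 15625 genes. A quasi-likelihood model with the 5 controls as one group and each irradiated pool as its own group (4 residual degrees of freedom, common dispersion 0.0566) gave 2-sided F tests with Benjamini-Hochberg adjustment at 0.05. The lone pool is assumed to vary like the controls, which span all ages, so age and irradiation are not fully told apart. The p-values measure the spread between pools, biological and technical together. Differences from the 1-week control are log2 CPM with a prior count of 2, 1 pool against 1 pool, with no test and no error. A floor of 3 counts in the irradiated library served for genes at 0 and covers counting error only. Alternatives were total scaling, DESeq2 1.42.0, other filters, counts divided by the step, limma 3.58.1 on log2(FPKM + 1) and log2(FPKM + 0.1), other sample sets, age as a covariate and leaving out each control. Each control against the other 4, positions under total scaling and lengths of transcripts were added after seeing the data. The edgeR and DESeq2 fits were tested on simulated counts.

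The comparison, the 43 lists and the rule for named genes were chosen with earlier results of these data known. The rule names every gene that passes, up to 10 of each direction by the largest difference from the 1-week control outside the control range with a mean of at least 50 counts, the 4 smallest p of each list, and fixed genes. Other list members named beside them were chosen after their values were seen. Promoter windows of RefSeq GRCm38.p6 served for sequences. Of 1057 list entries 5 were not matched. One gene that the rule names is not reported here.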

Additional observations from a re-analysis of the deposited data

Results flagged for a closer look

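Of 145 named genes, 8 had 1 control pool far from the other 4 by Dixon's test, and chance alone gives about 1 in 20 groups. The 4-week control had 6.5 CPM of Rad51ap1 (4.38 to 4.84 CPM in the other controls), 1278 CPM of H2-Eb1 (1646 to 1756 CPM), 126 CPM of Hopx (67.1 to 79 CPM) and 39.2 CPM of Cpne5 (46.1 to 48.5 CPM). The 12-week control had 5.35 CPM of Ces2e (1.82 to 2.48 CPM) and 0.0849 CPM of Gm10132 (12.4 to 15.2 CPM). The 32-week control had 7.41 CPM of Foxp3 (3.73 to 4.16 CPM). The 1-week control itself had 202 CPM of Rps20, against 242 to 250 CPM in the others, so the matched difference of Rps20 is smaller than that from the other controls.

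The tests between irradiated pools called 2 genes against 24 hours, with log2 differences of −2.61 for Ifit3 and 5.08 for ENSMUSG00000107057. Against 4 weeks they called Cpne5 (2.69), Siglecf (2.43), Krt79 (3.05), Ear1 (2.33) and ENSMUSG00000107372 (11.13, a fitted value that depends on the prior count, since the 4-week pool had 0 counts).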

How the results depend on the processing

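Against the 5 controls, where edgeR called 3 genes, there were 0 under total count scaling, 229 with DESeq2 (95 higher and 134 lower), 20 without a filter, and 0 with log2 days as a covariate. Leaving out single controls gave 0 to 8. Against 24 hours, where 2 were called, DESeq2 gave 43, no filter 11, limma on log2(FPKM + 1) 4, and leaving out single controls 1 to 6. Against 4 weeks, where 5 were called, DESeq2 gave 47, no filter 10, limma on log2(FPKM + 0.1) 11, and leaving out single controls 1 to 5. The other settings kept these counts within 1.5 times. Of 2114 alternative values for 152 named gene results, 1953 kept direction and call, 45 lost a call, 80 gained one (62 with DESeq2 and 12 without a filter) and 36 turned direction. Those that turned were values near 0, none called. Total count scaling gave log2 folds of −0.05 for Pmaip1 and Foxp3, −0.06 for Ddb2, −0.08 for Cd209a, −0.1 for Hopx, −0.04 for Cdh5 and −0.09 for Vwf. DESeq2 gave −0.01 for Cd209a and 0 for Hopx, and a fit of the controls and the 1-week irradiated pool alone gave −0.02 for Cd209a, −0.01 for Hopx and 0 for Vwf. With log2 days as a covariate Cd209a was at −0.12, Hopx at −0.02, Cdh5, Vwf and Col1a1 at −0.03 and Il1b at 0.13. Limma gave 0.1 and 0.14 for Pdpn and 0.13 for Il1b at either pseudocount. Leaving out single controls gave −0.02 to 0.13 for Ddb2, −0.13 to 0.12 for Cd209a, −0.06 to 0.2 for Hopx, −0.03 to 0.21 for Cdh5, −0.07 to 0.1 for Vwf, −0.1 to 0.05 for Il1b and −0.05 to 0.25 for Tnf. Of the 43 list medians and that of all genes, total scaling turned the sign of 3, all within 0.05 of 0. Taking the mean of the 5 controls in place of the 1-week control turned 4, to −0.09 for ciliated markers, 0.04 for interferon-stimulated genes, −0.02 for clock genes and 0.04 for cardiac markers, and it moved thymocyte markers to −2.65, monocyte markers to 0.45, smooth muscle markers to 0.40, ribosomal protein genes to −0.81, alveolar type 1 markers to 0.58, antioxidant genes to 0.07, end joining genes to −0.06, mitochondrially encoded genes to −0.34, TGF beta genes to 0.25 and homologous recombination genes to −0.25. The cause of these shifts was not tested. No paired analysis was possible because each time has 1 irradiated pool, so that the groups share fewer than 2 replicate numbers. With 1 library and 4 residual degrees of freedom, the adjusted p of a single gene depends on the spread of the 5 controls, and genes under about 1 CPM rest on few counts.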
